A study of Mus musculus with 10 samples.

Results

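The genes described here encode the nuclear part of the mitochondrial respiratory chain in mouse intestinal organoids. They were chosen by name: every gene of the deposited table whose symbol begins with Ndufa, Ndufb, Ndufc, Ndufs, Ndufv, Sdha to Sdhd, Uqcr, Cox4 to Cox8 or Atp5. There were 96 such genes among the 47069 of the table. By complex, 36 were counted as subunits of complex I, 4 of complex II, 8 of complex III, 20 of complex IV and 17 of complex V. The 17 of complex V were placed there by name alone. They include Atp5s and Atp5sl, which are counted with the subunits below without a check that they are structural. The name rule also took in 7 complex I assembly factors (Ndufaf) and 4 complex II assembly factors (Sdhaf). Ndufa4 and Ndufa4l2 were placed in complex IV, where Ndufa4 is now known to sit.

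The chain is built into the inner mitochondrial membrane. Complex I takes electrons from NADH and complex II, which is also the succinate dehydrogenase of the TCA cycle, takes them from succinate. Complex III passes them to cytochrome c and complex IV to oxygen, and complex V, the ATP synthase, uses the proton gradient to make ATP. Mitochondrial DNA encodes part of complexes I, III, IV and V, while complex II is wholly nuclear. In the gut, absorptive cells are rich in mitochondria, and several complex IV subunits have a second form that is typical of muscle or of low oxygen.

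All organoids came from C57BL/6 mice carrying Lgr5-EGFP-CreERT2 and floxed Ppp2r1a, the scaffold subunit of the phosphatase PP2A, and were grown in Matrigel with Noggin, EGF and R-spondin-1 for 50 days. Cre is driven by the stem cell promoter Lgr5, so tamoxifen removes exons of Ppp2r1a only in cells that express it and in their progeny. The 5 groups of 2 libraries each were control (saline), DMBA (a carcinogen, labelled Long), TAM short and TAM long (tamoxifen, called dosage-sensitive in the labels), and DMBA+TAM. What short and long stand for is not given in the sources used here, nor whether the 2 libraries of a group came from separate cultures, so the p-values measure only the spread between these libraries.

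The 8 libraries of the other groups held 8828247 to 10923673 counts, but DMBA+TAM held 1592366 and 1915270. Levels between libraries are given as CPM, counts scaled to a common library size after TMM normalization. Ppp2r1a itself lay between 123 and 169 CPM in all 10 libraries, and since only some of its exons are floxed, a count over the whole gene does not check the deletion. The labelled tissue was checked against markers. The 7 epithelial markers summed to between 11773 and 18753 CPM in the 8 other libraries and to 21.5 to 26.9 in DMBA+TAM, where Epcam, the pan-epithelial adhesion molecule, was at 1.58 and 1.32. The 8 fibroblast markers summed to 31384 to 32378 in DMBA+TAM and to at most 2047 elsewhere. The 9 skeletal muscle markers reached 8139 in DMBA+TAM replicate 2 alone, against 7.37 in replicate 1 and at most 21.3 elsewhere. Of the small intestine list, 7 of 8 genes were in the table; they summed to 12509 to 14963 in control and TAM short and to 9.19 to 223 in DMBA and TAM long. The 7 colon markers went the other way, with 518 to 754 in control and TAM short and 3892 to 13381 in DMBA and TAM long. The 6 smooth muscle markers summed to 7145 to 12810 in DMBA and TAM long and to 1206 to 2275 in every other group. In DMBA+TAM the 6 fat cell markers summed to 2252 and 4646, the 4 endothelial ones to 475 and 480 and the 5 immune ones to 701 and 706, against at most 215, 88.1 and 119 elsewhere. The 5 proliferation genes summed to 699 to 984 in control and TAM short and to 244 to 411 in the other 3 groups. The part of these cell types in the results below was not tested. Gut region and treatment therefore cannot be told apart in comparisons of those pairs of groups, and the labels do not give the region. The sample titles are NS for control, NL for DMBA, DSS_S for TAM short, DSS_L for TAM long and Lgr5 for DMBA+TAM. Their letters are not explained in the sources used here. S and L divide the groups other than DMBA+TAM as the small intestine and colon markers do.

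**Figure D1:**
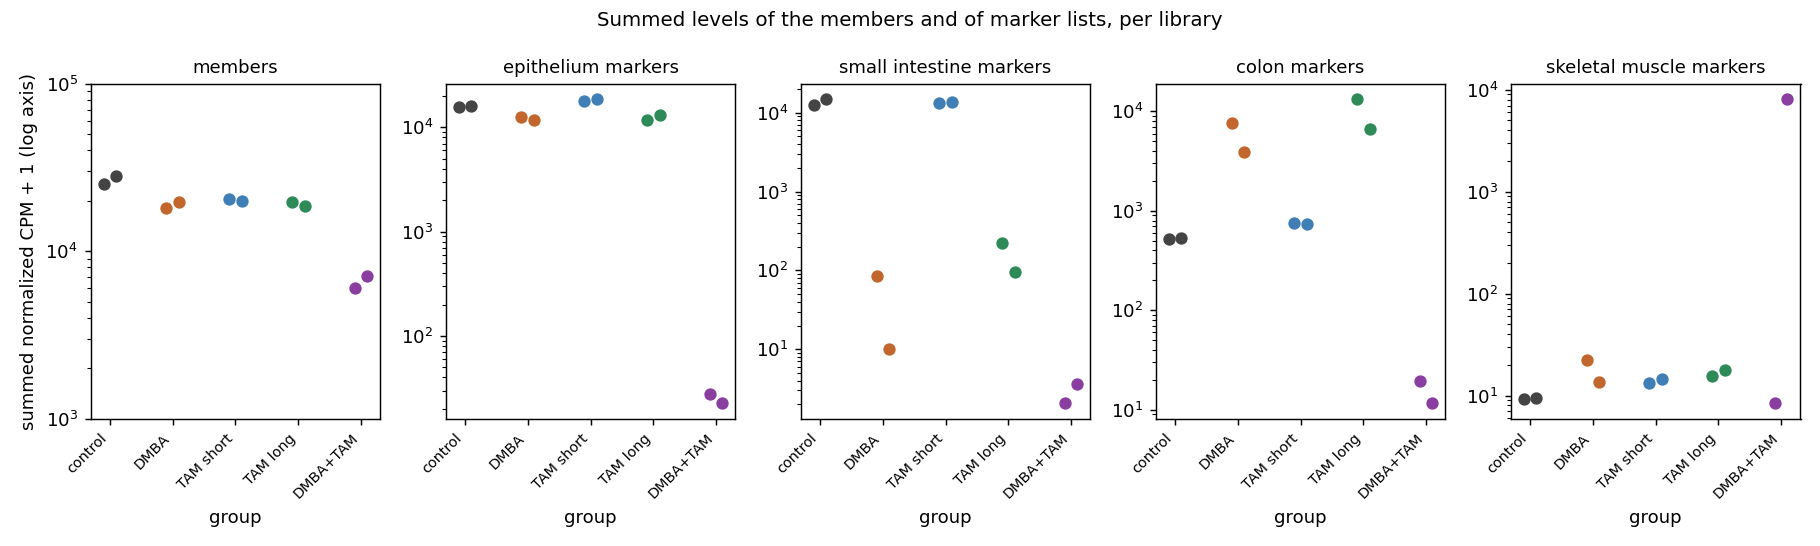
Summed CPM plus 1 (log axis, one scale per panel) of the 96 respiratory chain genes and of 4 marker lists, with 1 point per library and 2 libraries per group. The chain genes summed to 6054 and 7125 in DMBA+TAM, the group in which epithelial markers were nearly absent, and to 18147 or more in every other library.

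Because many chain genes moved in 1 direction in the comparisons that follow, the promoters that RefSeq gives for them (build GRCm38.p6, 250 bases before to 50 after the start site) were read for known motifs. A window was held for 80 of the 96 genes. The letters bound by NRF1, a regulator of nuclear genes for mitochondrial proteins, were searched as GCGCA, any base, then GCGC, on both strands. They stood in the windows of 21 of the 80 genes, or 26.2%, against 5.19% of 27025 genes with a window. The form with T as the free base, which is contained in the first, stood in 7 of the 80 or 8.8%, against 1.07% of all genes. The ETS core CGGAAG, as bound by GABP, stood in 35 genes or 43.8%, against 18.8%. CCAAT was found at 43.8% against 41.1% and TATAAA at 10% against 15.7%. A match is only a match of letters, and the motifs were chosen with the results known.

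The following 60-base stretches, all lying before the start site on the gene's strand, show those letters, on either strand, in capitals for genes whose values are given further on: Sdhd at chr9:50603894-50603953 (minus strand), Ndufs6 at chr13:73328483-73328542 (minus), Cox6a1 at chr5:115349041-115349100 (minus), Atp5g2 at chr15:102671055-102671114 (minus) and Atp5k at chr5:108434415-108434474 (minus). The last pair, Cox7a1 at chr7:30184111-30184170 (plus) and Cox8b at chr7:140900447-140900506 (minus), encode muscle-type subunits, and the letters are not in the part of their windows before the start site. With the letters in only 21 of 80 windows read, their absence is the common case and not particular to muscle forms.
Sdhd: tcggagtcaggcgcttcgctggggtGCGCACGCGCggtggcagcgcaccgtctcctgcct
Ndufs6: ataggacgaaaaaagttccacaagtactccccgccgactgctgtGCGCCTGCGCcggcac
Cox6a1: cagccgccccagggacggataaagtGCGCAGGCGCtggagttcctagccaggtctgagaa
Atp5g2: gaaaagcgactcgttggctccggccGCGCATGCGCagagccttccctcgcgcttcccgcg
Atp5k: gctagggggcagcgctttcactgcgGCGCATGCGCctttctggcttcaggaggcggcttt
Cox7a1: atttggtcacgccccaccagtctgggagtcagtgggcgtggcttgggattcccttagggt
Cox8b: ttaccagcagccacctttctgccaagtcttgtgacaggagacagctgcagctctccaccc

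Complex V took the largest share of counts among the complexes. As a share of all counts of a library, the 96 genes took 2.16% and 2.33% in control, 1.92% to 2.03% in DMBA, 1.96% to 2.09% in TAM long and 1.80% to 1.85% in TAM short. In DMBA+TAM the share was 0.722% and 0.846%, below every other library. Complex V alone made up 0.874% and 0.939% of the control counts, complex IV 0.456% and 0.495%, complex I 0.412% and 0.446%, complex III 0.244% and 0.265% and complex II 0.155% and 0.167%. Per length, on the deposited FPKM scale, the median subunit stood at 494 FPKM in complex V, 437 in complex III, 369 in complex IV, 319 in complex II and 142 in complex I in control. The complex IV median is over all its 20 genes. Among them Cox6a2, Cox7b2, Cox8b and Cox8c were at 0 FPKM in control, Ndufa4l2 at 0.354 and Cox4i2 at 0.671. These nearly silent forms lower it, so its place in this order depends on the name rule. The assembly factors were far lower, with medians of 12.9 FPKM for complex I and 7.17 for complex II. The highest of the named genes was Atp5b, the catalytic beta subunit of ATP synthase, at 2762 ± 27.3 FPKM (SD, n = 2) in control.

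**Figure D2:**
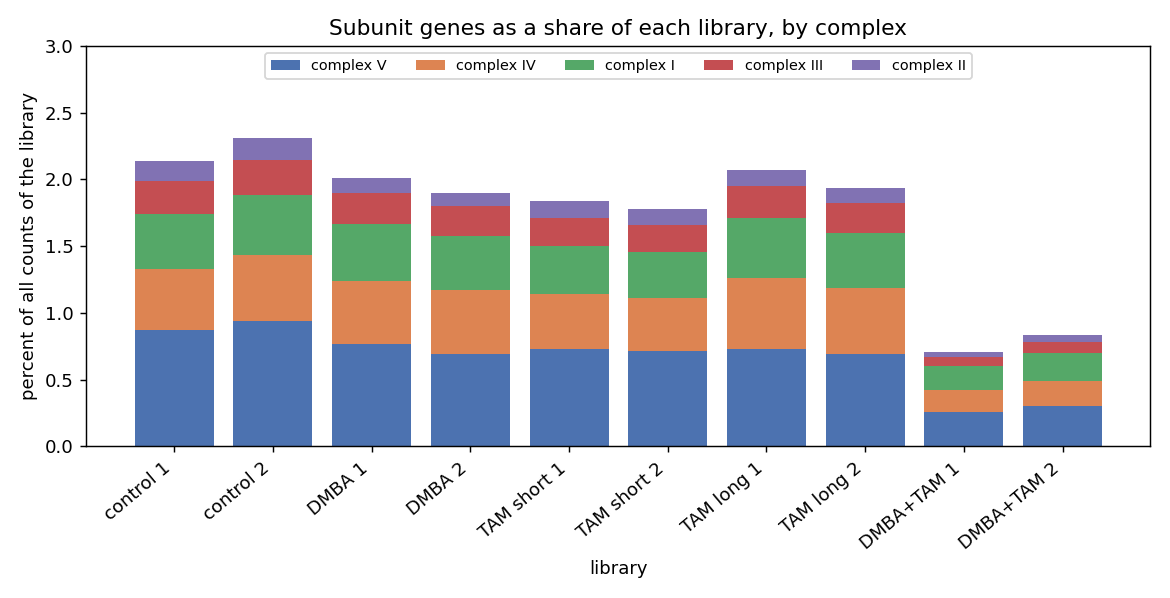
Counts of the subunit genes as a percent of all counts of each library, stacked by complex, for the 10 libraries. Both DMBA+TAM libraries sit below 1% while the other 8 lie between 1.8% and 2.33% with the assembly factors included.

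DMBA+TAM was compared with control as the group given both carcinogen and tamoxifen, without a check of the Ppp2r1a deletion. Here nearly the whole chain was lower. Of 93 chain genes with enough counts to be tested, 83 fell and 2 rose at an adjusted p under 0.05 (edgeR quasi-likelihood test, Benjamini-Hochberg over 16179 genes), while of all genes tested 35.3% were lower and 29.0% higher. The median log2 fold change of the members was -1.81, a level 3.49 times lower, where the median of all genes was -0.17. With scaling by library size only the median of all genes was 0.31 and that of the members -1.31, with 78 lower and 3 higher. All 36 complex I subunits, 4 of 4 complex II subunits, 8 of 8 of complex III and 17 of 17 of complex V fell, together with 14 of 17 tested subunits of complex IV. In these bulk libraries fewer cells of a type and less RNA per cell cannot be told apart, and the part that the near absence of epithelial markers plays in the falls was not tested. Without DMBA+TAM replicate 2, the library with muscle genes, 85 members were called, 83 of them lower, and 83 of the 85 were also called with both libraries.

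The depth of the fall differed between complexes as a description. The median log2 fold change was -2.24 in complex III, -2.11 in complex II, -2.11 in complex IV, -2.08 in complex V and -1.67 in complex I. Complex I subunits ranged from -2.41 to -0.72. The assembly factors had a median of -0.51, and 4 of 11 fell: Ndufaf3, Ndufaf4, Ndufaf5 and Sdhaf2. That is 36.4% of them, near the 35.3% of all genes that were lower. The fall of Sdhaf2, which inserts FAD into Sdha, was small at -0.36 ± 0.13 (SE, adjusted p = 0.0342 by edgeR) and was called in only 2 of 11 fits, with values from -0.43 to 0.13. Members with more counts had the lower fold changes (Spearman's rho of -0.61 between fold change and mean level over 88 members with a mean of 50 counts or more, against -0.21 over all genes), and these points share the same libraries.

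**Figure D3:**
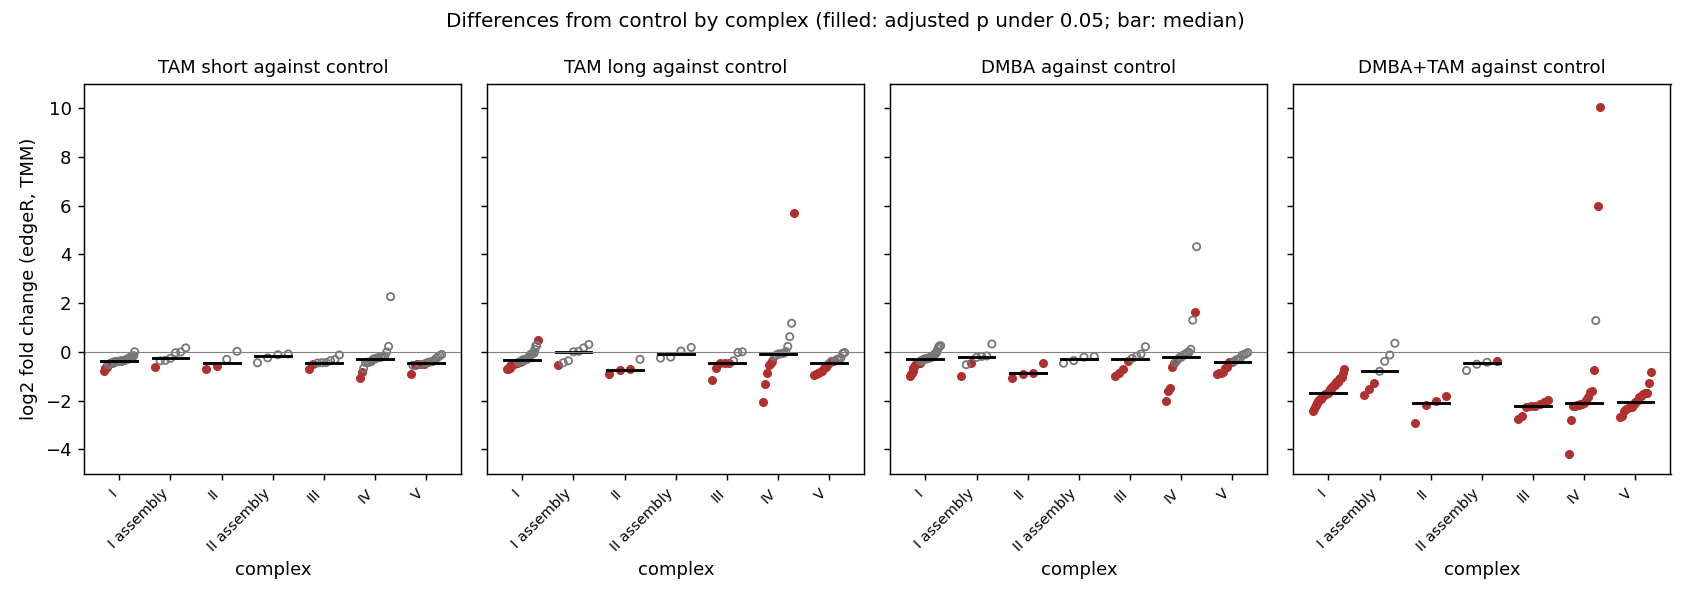
Log2 fold change (edgeR, TMM scaling) of each tested chain gene against control, by complex, for 4 comparisons; filled points had an adjusted p under 0.05 and bars are medians. In DMBA+TAM all subunits of complexes I, II, III and V are filled and below 0, while the points above 4 in complex IV are genes at or near 0 counts in control, whose fitted value is no measure of size.

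Among complex I genes, Ndufs6, an accessory subunit of the electron input arm, had the largest fall. It stood at 156 and 164 CPM in control, 137 and 151 in DMBA, 119 and 114 in TAM short, 135 and 112 in TAM long, and 28.4 and 31.7 in DMBA+TAM. The control libraries were the highest and the DMBA+TAM libraries lay far below all others, and the change from control was -2.41 ± 0.14 (SE, edgeR adjusted p = 3.26e-07). Ndufs1, the large iron-sulfur subunit, was at 225 and 231 in control and at 73.7 and 67.3 in DMBA+TAM. Ndufv1, which binds NADH, was at 243 and 253 in control and at 55.3 and 59.8 in DMBA+TAM. The smallest fall of a complex I subunit was that of Ndufa7, from 68.8 and 68.6 to 47.9 and 36.1 (-0.72 ± 0.17), called in 9 of 11 fits.

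Complex II was lower in DMBA+TAM than in any other group. Sdhd, a membrane anchor (ENSMUSG00000000171, chr9:50596338-50603849), stood at 532 and 591 CPM in control, 367 and 330 in TAM short, 290 and 306 in TAM long, 236 and 291 in DMBA and 67.4 and 80 in DMBA+TAM. Only DMBA and TAM long overlapped. Against control it was lower in all 4 groups by edgeR, by -0.69 ± 0.14 in TAM short, -0.91 ± 0.14 in TAM long, -1.09 ± 0.14 in DMBA and -2.93 ± 0.16 in DMBA+TAM (SE; adjusted p = 0.0117, 0.000689, 0.000229 and 1.89e-07). The call in TAM short was made in 8 of 11 fits. Sdha, the flavoprotein that oxidizes succinate, went from 785 and 826 in control to 443 and 418 in DMBA and 172 and 221 in DMBA+TAM. Sdhb, the iron-sulfur subunit, went from 338 and 391 to 203 and 199 and then 76.4 and 83.5, and Sdhc, the other anchor, from 148 and 192 to 130 and 116 and then 41.6 and 55.4. In TAM short Sdhc was at 173 and 172, within the range of control.

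In complex III the largest fall was that of Uqcrfs1, the Rieske iron-sulfur protein, from 413 and 457 CPM in control to 54.8 and 73.9 in DMBA+TAM (-2.75 ± 0.16, edgeR adjusted p = 2.82e-07). The core proteins Uqcrc1 and Uqcrc2 fell by 2.25 and 2.62 on the log2 scale. Uqcrb, a small subunit near the quinone site, fell by 2.05. The 8 members of this complex lay between -2.75 and -1.99, and the 4 of complex II between -2.93 and -1.81.

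In complex V, Atp5b (ENSMUSG00000025393, chr10:128083273-128090391) stood at 2787 and 2923 CPM in control, 2073 and 2090 in TAM short, 1557 and 1485 in TAM long, 1619 and 1547 in DMBA and 515 and 607 in DMBA+TAM. The control libraries were highest, TAM short came next, and DMBA and TAM long overlapped. Its partner Atp5a1, the alpha subunit, went from 1979 and 2195 in control to 384 and 488 in DMBA+TAM. Atp5o, which ties the catalytic head to the stalk, had the largest fall of the complex, from 343 and 405 to 49.5 and 67.7 (-2.67 ± 0.16). The 3 genes for the same ring subunit c differed: Atp5g3 fell by 2.64, Atp5g1 by 2.43 and Atp5g2 by 0.81 on the log2 scale. The mature protein of these 3 is the same, and similar copies of short chain genes lie elsewhere in the genome, so how reads between copies were counted adds uncertainty to them.

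In DMBA+TAM against control, both members that rose were in complex IV, and some of its paired forms differed in direction or size of change. Cox7a1 is the heart and muscle form of subunit 7a (ENSMUSG00000074218, chr7:30184171-30186028). It stood at 127 and 153 CPM in control, 72.5 and 61.7 in TAM short, 34.7 and 31.2 in TAM long, 31.6 and 37.0 in DMBA and 3.69 and 11 in DMBA+TAM. It was the largest fall of complex IV in every comparison with control, at -1.06 ± 0.22 in TAM short, -2.08 ± 0.23 in TAM long, -2.03 ± 0.23 in DMBA and -4.20 ± 0.31 in DMBA+TAM (SE; edgeR adjusted p = 0.0119, 7.67e-05, 8.76e-05 and 1.36e-06). The call in TAM short was made in 7 of 11 fits and the other 3 in all 11. Its general counterpart Cox7a2 fell in DMBA+TAM (-2.20 ± 0.17) and gave -0.24 ± 0.16 in DMBA, which did not pass. On the FPKM scale Cox7a1 made up 41.9% and 42.7% of the sum of Cox7a1 and Cox7a2 in control, 33.5% and 30% in TAM short, 15% to 18.8% in DMBA and TAM long, and 8.61% and 20.1% in DMBA+TAM.

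The other muscle forms were nearly silent outside DMBA+TAM. Cox6a2, the muscle form of subunit 6a (chr7:128205435-128206387), had 152 counts in DMBA+TAM replicate 2, 1 in replicate 1, 1 in TAM long replicate 1 and 0 in the other 7 libraries. It did not pass the filter on low counts and was not tested. Cox8b, the muscle form of subunit 8 (chr7:140898943-140900446), had 0 and 0 counts in control and 9 and 64 in DMBA+TAM. Against the floor of 3 counts per library its mean in DMBA+TAM was at least 47.0-fold higher than in control, with the libraries at 13.6 and 80.5 times the floor, so replicate 2 sets the size. Replicate 2 is the library with skeletal muscle markers, where Acta1, the actin of skeletal muscle, was at 2084 CPM against 0.527 in replicate 1. Replicate 1 still held Cox8b at 4.74 CPM, against at most 0.883 in the 8 libraries of the other groups. Cox8b was called higher in DMBA+TAM than in control in all 11 fits. Cox8b did not pass the filter in fits without the DMBA+TAM libraries, so its call there is given as a description. Cox8b also passed in TAM long against control, on 8 and 9 counts against 0 and 0, at least 2.25-fold above the floor, and was called in 5 of the 10 fits that could test it.

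Ndufa4l2, a form of Ndufa4 known to rise under low oxygen (chr10:127514939-127517152), was the second riser. Unlike Cox8b, it was not higher in the library with muscle markers than in the other DMBA+TAM library. It had 59 and 51 counts in DMBA+TAM and 0 to 16 in the other 8 libraries, or 31.1 and 22.4 CPM against at most 1.43. Ndufa4 itself fell, from 380 and 438 in control to 66.9 and 112 in DMBA+TAM, and also to 146 and 148 in DMBA. Ndufa4l2 thus made up 23.5% and 11.7% of the FPKM of the pair in DMBA+TAM and at most 0.642% elsewhere. Both libraries were higher (fitted log2 fold change 5.99 ± 0.92 against control, edgeR adjusted p = 0.00027, and 4.69 to 10.72 over the 11 fits, so the size is not fixed; 4.69 ± 0.81 against DMBA, adjusted p = 0.000806), although the control libraries held only 7 and 0 counts.

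**Figure D4:**
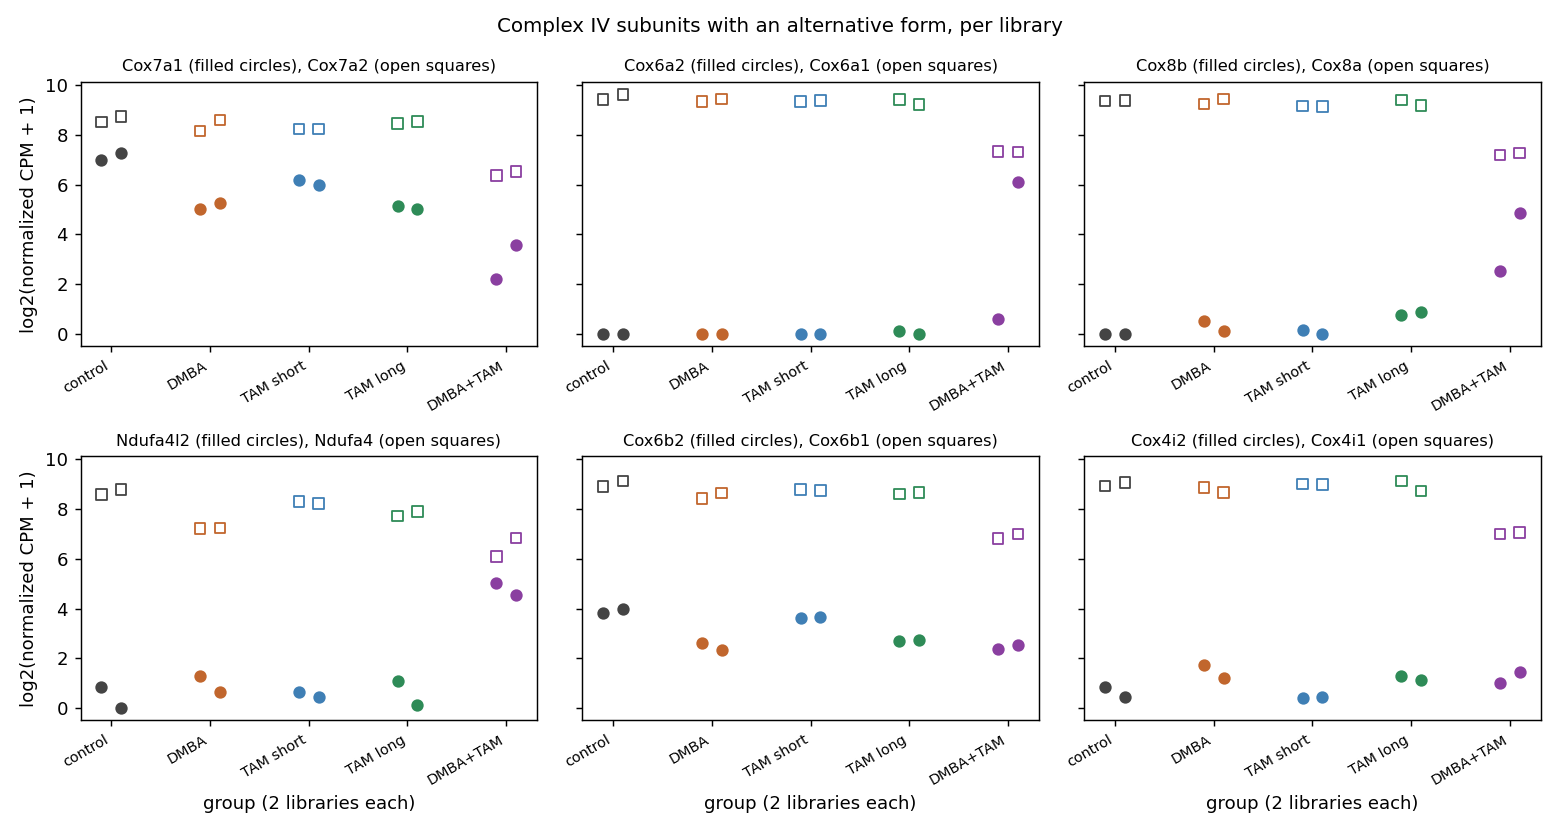
Log2 of CPM plus 1 for 6 pairs of complex IV forms, with filled circles for the alternative form, open squares for the general form and 2 libraries per group. Cox7a1 steps down from control to DMBA+TAM, Cox6a2 is above 1 count only in DMBA+TAM replicate 2, and Ndufa4l2 is high in both DMBA+TAM libraries.

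Of the remaining forms, Cox6b2, known from testis, was at 13.3 and 14.8 CPM in control, 11.4 and 11.6 in TAM short and 4.04 to 5.69 in DMBA and TAM long. It fell in DMBA (-1.60 ± 0.21), TAM long (-1.32 ± 0.20) and DMBA+TAM (-1.62 ± 0.26) by edgeR. Cox4i2, the lung and low-oxygen form of subunit 4, had only 2 to 26 counts in any library and rose in DMBA against control on 26 and 12 against 7 and 3 counts (edgeR adjusted p = 0.0306; called in 6 of 11 fits), while Cox4i1 was at 126 or more CPM in all 10 libraries. Cox7b2 and Cox8c had 0 counts in all 10 libraries and were not tested. The general forms Cox6a1, Cox6b1, Cox7b and Cox8a fell in DMBA+TAM by 2.21, 2.11, 2.22 and 2.14 on the log2 scale. Cox5a, a general subunit with no second form, went from 98.8 and 119 CPM in control to 71 and 69.8 in DMBA and 13.7 and 17.6 in DMBA+TAM (-2.79 ± 0.16). Cox7a2l, which helps to join complexes III and IV, fell by 0.74 and was called in 9 of 11 fits, with values from -0.87 to -0.24.

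DMBA alone was compared with control as the carcinogen without tamoxifen. These groups also differed in markers, with 7 of 7 colon, 6 of 6 smooth muscle and 7 of 8 fibroblast genes higher and 5 of 7 small intestine and 5 of 5 proliferation genes lower in DMBA, so treatment and these markers cannot be told apart. The median change of the 93 members was -0.33 against 0.07 for all genes, and 37 fell while 1, Cox4i2, rose, where 23.3% of all genes fell and 24.5% rose. Subunits of complex II fell in 4 of 4 cases, with a median of -0.88, and those of complex V in 9 of 17, with a median of -0.40. Complex III had 4 of 8 lower, complex I 13 of 36 and complex IV 5 of 17. The largest falls by complex, after Cox7a1, were those of Sdhd, Uqcrc2 (-0.99 ± 0.13), Ndufaf6 (-0.99 ± 0.30, called in 6 of 11 fits), Ndufa9 (-0.98 ± 0.10) and Atp5c1 (-0.93 ± 0.15), the last the gamma rotor of ATP synthase. Many general complex IV subunits showed no call, such as Cox8a at -0.02 ± 0.13, Cox6c at -0.04 ± 0.17 and Cox4i1 at -0.23 ± 0.15. With scaling by library size only, which puts the median of all genes at 0.37 in place of 0.07, 14 members fell and 7 rose, and the medians of complex I and complex IV turned to 0.02 and 0.09. Under that scaling the medians of complexes II, III and V were -0.57, -0.01 and -0.10. Of the named genes, Ndufa9, Ndufs1, Sdha, Sdhb, Sdhd, Uqcrc2, Ndufa4, Cox7a1, Cox6b2, Atp5b, Atp5c1 and Atp5g3 were lower in all 11 fits tried. Without control replicate 2, 19 members were called, all lower.

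TAM long against control gave similar counts, from libraries that share the colon-type markers with DMBA. In TAM long 6 of 7 colon and 6 of 6 smooth muscle genes were higher, with 4 of 8 fibroblast genes higher and 1 lower. Lower were 5 of 7 small intestine and 5 of 5 proliferation genes, and the part of these markers in the falls was not tested. The median change was -0.37 against 0.05 for all genes; 41 members fell and 2, Ndufa7 and Cox8b, rose, where 22.8% of all genes fell and 23.2% rose. Cox8b could be tested only with the DMBA+TAM libraries in the fit, and leaving out any 1 library of the compared groups left 0 members higher. Complex II had 3 of 4 lower, complex III 5 of 8, complex V 10 of 17, complex I 16 of 36 and complex IV 6 of 17. Among genes with a mean of 50 counts or more, the largest falls of each complex and of the assembly factors were those of Cox7a1, Uqcrc1 (-1.14 ± 0.23), Atp5g3 (-0.97 ± 0.13), Sdhd, Ndufb6 (-0.71 ± 0.17) and Ndufaf4 (-0.54 ± 0.15), the last pair called in 8 and 6 of 11 fits. Ndufa7 rose, from 68.8 and 68.6 in control to 101 and 92.7 in TAM long (0.50 ± 0.16, edgeR adjusted p = 0.0256; called in 7 of 11 fits). Scaling by library size only put the median of all genes at 0.37 in place of 0.05 and that of the members at -0.05. With that shift of all genes, 15 members fell and 6 rose, and the median of complex IV turned from -0.09 to 0.23. Without control replicate 2, 20 members were called, all lower, and without TAM long replicate 2, 22.

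Directly compared, TAM long and DMBA were not told apart. No member was called by edgeR, 10 had an unadjusted p under 0.05, and DESeq2 called 1; of all genes 1.24% were higher and 1.46% lower. The median difference was 0.01 with a median SE of 0.15, and the 4 complex II subunits lay between 0.14 and 0.18. The members ranged from -0.68 (Ndufa4l2) to 1.37 (Cox8b), both genes of few counts, and differences of the size of the SE could not be seen here.

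TAM short against control compared libraries with similar sums of small intestine markers, although 4 of the 7 markers were lower and 2 higher in TAM short. Of the other marker lists, 3 of 8 fibroblast genes were lower and 1 higher, 2 of 4 endothelial genes were lower and 2 of 5 immune genes higher, and their part in the falls was not tested. The median change was -0.39 against -0.04 for all genes, and 23 members fell with none higher, while 7.80% of all genes fell and 6.52% rose; 49 members had an unadjusted p under 0.05. Complex V had 6 of 17 lower, complex I 10 of 36, complex II 2 of 4, complex III 2 of 8 and complex IV 2 of 17. The largest falls of each complex and of the assembly factors, by the same rule, were those of Cox7a1, Atp5k (-0.90 ± 0.14, an ATP synthase subunit of the dimer), Ndufa5 (-0.80 ± 0.17), Uqcrb (-0.70 ± 0.14), Sdhd and Ndufaf4 (-0.61 ± 0.15). Atp5k was called in 11 of 11 fits, Ndufa5 in 8, Uqcrb in 7 and Ndufaf4 in 6. The count was fragile: it was 2 without control replicate 2 or without TAM short replicate 2, 3 without TAM short replicate 1 and 11 without control replicate 1, though the median stayed between -0.46 and -0.30. It was 32 in DESeq2, 12 with library size only and 50 with the 4 libraries fitted alone.

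DMBA+TAM was also compared with DMBA. Here 7 of 7 epithelial, 7 of 7 colon, 6 of 6 smooth muscle and 2 of 5 proliferation markers were lower in DMBA+TAM. Higher were 8 of 8 fibroblast, 6 of 6 fat cell, 4 of 4 endothelial and 7 of 7 tested skeletal muscle markers. The skeletal muscle markers summed to 7.37 CPM in DMBA+TAM replicate 1 and to 8139 in replicate 2. Of 5 immune markers 3 were higher and 1 lower, and of 7 small intestine markers 1 was higher and 1 lower. The part of these markers in the falls was not tested. The median of the members was -1.34 against -0.14 for all genes; 80 fell and 2 rose, where 29.9% of all genes fell and 25.2% rose. All subunits of complexes I, II and III fell, with 16 of 17 genes of complex V and 13 of 17 of complex IV. The complex V gene not called was Atp5s, placed there by name alone. Uqcr10, a small complex III subunit, had the largest fall at -2.45 ± 0.16, and Ndufs6 (-2.25 ± 0.14), Cox7a1 (-2.17 ± 0.32) and Atp5g1 (-2.14 ± 0.18) were the largest of complexes I, IV and V, while Cox6b2 gave -0.02 ± 0.28. The 2 that rose were again Ndufa4l2 and Cox8b, and Cox8b had 9 and 64 counts in DMBA+TAM against 5 and 1 in DMBA.

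TAM long against TAM short placed the libraries with colon-type markers against those with small intestine markers. In TAM long 8 of 8 fibroblast, 6 of 6 smooth muscle and 3 of 4 endothelial genes were also higher. Lower were 5 of 5 proliferation and 3 of 5 immune genes, and the part of these markers was not tested. Of the members 8 were higher and 7 lower, where 22.0% of all genes were higher and 20.3% lower, with a median of 0.03 against 0.05. The lower ones were Atp5b, Atp5g3, Cox6b2, Cox7a1, Sdha, Uqcrc1 and Uqcrq. The higher ones were Ndufa1, Ndufa2, Ndufa6, Ndufa7, Ndufv3, Ndufaf7, Uqcr10 and Cox4i2. Scaling by library size only moved the median of all genes to 0.27 and that of the members to 0.26. With library size only, the split was 26 higher and 2 lower, and leaving out any 1 library of the pair left 2 to 5 calls. Cox7a1 (-1.03 ± 0.23) and Uqcrc1 (-0.69 ± 0.23) were the abundant genes with the largest falls after Cox6b2 (-1.04 ± 0.20).

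**Figure D5:**
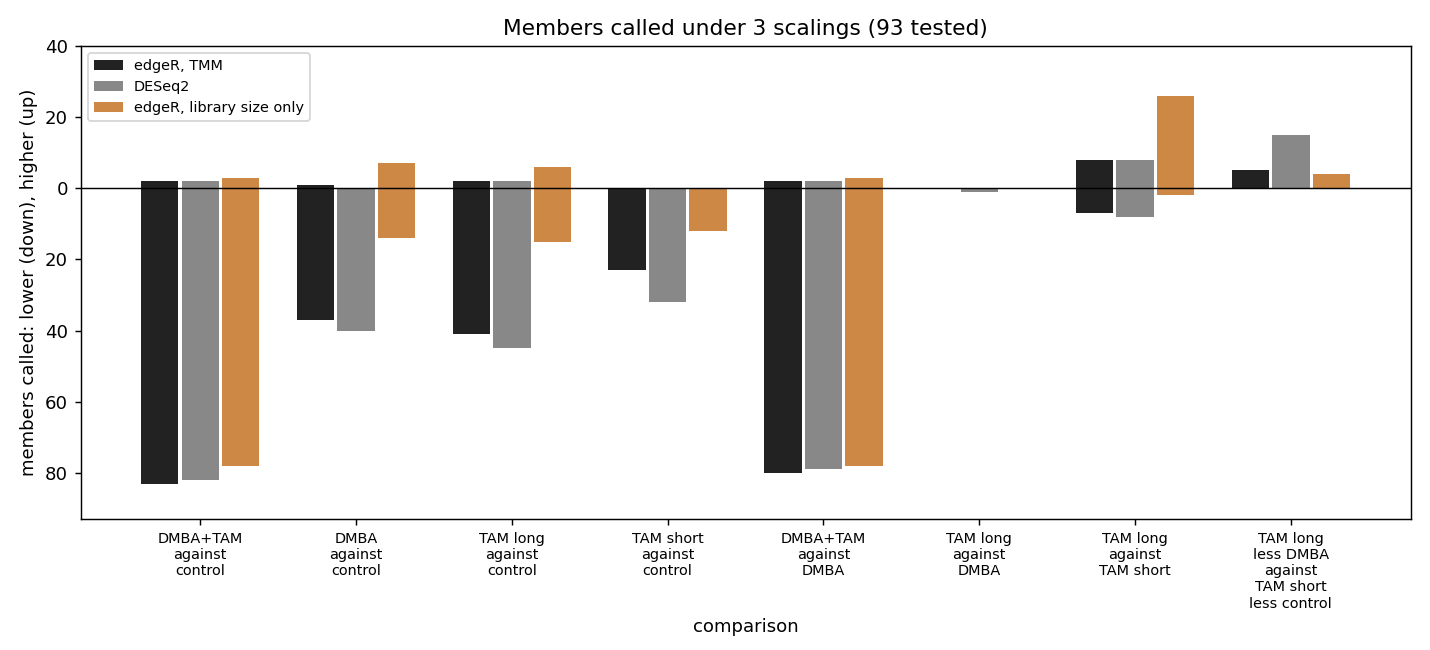
Number of the 93 tested chain genes called lower (bars down) and higher (bars up) at an adjusted p under 0.05 in 8 comparisons, under edgeR with TMM, DESeq2 and edgeR with library size only. The DMBA+TAM bars keep about the same height, while in DMBA and TAM long against control the lower calls drop to 14 and 15 and higher calls of 7 and 6 appear with library size only.

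A further test, added with the data in view, asked whether the step from DMBA to TAM long differed from the step from control to TAM short. It called 5 members, Ndufa9, Ndufs1, Sdhb, Sdhd and Uqcrc2, all with a positive difference, and 0 without control replicate 2 or TAM short replicate 2, where 2.93% of all genes were positive and 2.78% negative. The median of the members was 0.40 against 0.05. Sdhd fell from 532 and 591 in control to 367 and 330 in TAM short, yet stood at 236 and 291 in DMBA and 290 and 306 in TAM long.

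Other genes of the same pathways moved in the same direction in part. Of the 13 chains encoded by mitochondrial DNA, 12 could be tested: against control 10 fell in DMBA+TAM, 8 in DMBA, 4 in TAM short and 3 in TAM long, the last near the 22.8% of all genes that fell there. They summed to 3.05% to 3.08% of counts in control, 3.92% to 4.15% in TAM long and 1.63% to 1.72% in DMBA+TAM. The larger sum in TAM long came with mt-Co1, at 21557 and 18689 CPM against 15044 and 15082 in control, while 0 of the 12 were called higher. Since mRNA was selected by its poly-A tail and mt-Nd4l, mt-Co2, mt-Co3 and mt-Atp8 were at 0 to 9.37 CPM beside 5722 to 21557 for mt-Co1, their counts cannot be taken as levels. All 4 chain genes outside the name rule fell in DMBA+TAM, DMBA and TAM long: Cyc1 of complex III, the carrier Cycs (cytochrome c), Atpif1, the inhibitor of ATP synthase, and Usmg5. Of 15 genes of pyruvate dehydrogenase and the TCA cycle, 15 fell in DMBA+TAM, 14 in DMBA, 12 in TAM short and 13 in TAM long, where 35.3%, 23.3%, 7.80% and 22.8% of all genes fell. Suclg2, a subunit of succinyl-CoA ligase, rose in DMBA (0.37) and TAM long (0.71).

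Of 26 further assembly factors tested, such as Surf1 and Sco1 of complex IV, 17 fell in DMBA+TAM, 10 in DMBA, 3 in TAM short and 5 in TAM long, with Cox10 and Uqcc2 higher in DMBA and Surf1 and Uqcc2 in TAM long. Of all genes 35.3%, 23.3%, 7.80% and 22.8% were lower in these 4 comparisons, so the 5 of 26 in TAM long and 3 of 26 in TAM short are near or below that background. Of 9 regulators of mitochondrial biogenesis, 5 fell and 1 rose in DMBA+TAM, 4 fell and 1 rose in DMBA, 4 fell and 2 rose in TAM long and 1 fell in TAM short. Ppargc1a, the coactivator PGC-1alpha, was at 93.2 and 77.9 CPM in control, 29.1 and 24.4 in TAM short, 36.0 and 34.8 in TAM long, 26.6 and 41.7 in DMBA and 1.05 and 1.76 in DMBA+TAM, and it fell in all 4 comparisons with control. Esrra, the nuclear receptor ERR-alpha that works with it, was at 315 and 356 in control, 266 and 278 in TAM short, 158 and 140 in DMBA, 175 and 127 in TAM long and 27.4 and 33.4 in DMBA+TAM. Ppargc1b rose in DMBA (1.20) and TAM long (0.86) and fell in DMBA+TAM (-2.14), Tfb2m rose in TAM long (0.48), Pprc1 rose in DMBA+TAM (0.87), and Nrf1 fell by 0.61 on the log2 scale in DMBA+TAM and did not pass in the other 3 comparisons with control. Ucp1, the uncoupler of brown fat, had 0 counts in all 10 libraries.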

How the data were processed

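Poly-A RNA of 10 organoid libraries was sequenced and, per the labels and the study's methods, the authors mapped reads to GRCm38.p6 with TopHat, counted reads per gene with HTSeq and deposited both the counts and FPKM of each library in a single table. Whether the counting used strand is not given in the sources used here. The lengths that the deposited FPKM imply were 0.258 to 1 times the listed gene lengths (median 0.729, 94 chain genes), so levels per length rest on the authors' own lengths. The 41 columns of group means and of the authors' own comparisons (fold changes and p-values) were not used, nor were 5 lines that are parts of split lines.

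Counts of 16179 genes that passed filterByExpr were scaled by TMM (factors 0.8325 to 1.192) and fitted with group means over all 10 libraries in edgeR 4.0.16 (R 4.3.3, quasi-likelihood test, 2-sided, Benjamini-Hochberg over all genes, threshold 0.05). CPM are counts divided by the TMM-scaled library size. The script was tested on simulated data: for DMBA+TAM against control it recovered 91% of 200 genes changed 4-fold and 30.5% of those changed 2-fold, among 16179 genes, with false calls making up 3.7% and 8.96% of calls. All simulated libraries had the same mean profile apart from these 200 genes, which were picked among well-counted ones and changed in both directions. In the real comparison far more genes differed, so these rates need not hold there. The 3 counts taken as floor cover counting error only. The replicate libraries of each group differed by more than sampling noise, so each was kept as a library of its own. Chi-square per degree of freedom was 73.4 in DMBA, 25.4 in TAM long, 7.78 in control, 6.82 in DMBA+TAM and 5.99 in TAM short. The test used a spread shared by all 5 groups, although DMBA and TAM long differed most between replicates by this measure.

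The members, the gene lists and the tests were chosen with earlier results of these data known. Named were core subunits of each complex, members with an alternative form, members that could not be tested and, per comparison and complex, the largest rise and fall among called members with a mean of at least 50 counts. Genes named as the full set of a count were added beyond that rule. One member of the rule is not reported here by name. Alternatives were scaling by library size only, no filter beyond 1 count, the compared libraries alone, a replicate block, DESeq2 1.42.0, limma 3.58.1 on log2(FPKM + 1), and leaving out each library. The contrast between the step to TAM long and the step to TAM short was added after seeing the data. Promoter windows were RefSeq's, matched by symbol or synonym. Figures were drawn with matplotlib 3.10.9 under Python 3.11.15.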

Additional observations from a re-analysis of the deposited data

Results flagged for a closer look

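The step from DMBA to TAM long differed from the step from control to TAM short in 5 of 93 members tested. Of all genes 2.93% had a positive and 2.78% a negative difference. The difference itself was tested in the same edgeR fit (adjusted p over 16179 genes), a contrast added with the data in view. The difference in log2 fold change was 0.90 ± 0.16 for Ndufs1 (SE, edgeR adjusted p = 0.0151), 0.80 ± 0.14 for Ndufa9 (0.0135), 0.71 ± 0.16 for Sdhb (0.0351), 0.87 ± 0.20 for Sdhd (0.0374) and 0.77 ± 0.19 for Uqcrc2 (0.0429). All 5 were lower in TAM short than in control in both libraries and higher in TAM long than in DMBA as group means. No member was called in TAM long against DMBA. Ndufs1 stood at 225 and 231 CPM in control, 162 and 148 in TAM short, 113 and 132 in DMBA and 157 and 154 in TAM long. Uqcrc2 stood at 603 and 652, 462 and 458, 296 and 334 and 378 and 409. The libraries of 1 step carry small intestine markers and those of the other colon markers, and the part of gut region in it cannot be told apart. The number of members called was 0 without control replicate 2 or TAM short replicate 2 and 16 without DMBA replicate 2.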

How the results depend on the processing

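In DMBA+TAM against control and against DMBA, the number of members called stayed within 1.5 times the reported count under every alternative tried, with 84 to 85 and 81 to 83 called when a library was left out. The other counts moved. With library size only, which puts the median of all genes at 0.37 in DMBA and TAM long against control, the members called against control numbered 12 in TAM short, 21 in DMBA and 21 in TAM long, with 28 in TAM long against TAM short. With limma on log2(FPKM + 1), which has no TMM factor, these were 13, 21, 21 and 27. With the compared libraries alone, 50 were called in TAM short against control, 27 in TAM long against TAM short and 9 in the difference between the steps to TAM long and to TAM short. DESeq2 called 15 there and no filter gave 13, and each of these 2 called 1 member in TAM long against DMBA.

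Leaving out each library in turn gave 2 to 11 calls in TAM short, 19 to 42 in DMBA and 20 to 33 in TAM long against control, 0 to 2 in TAM long against DMBA, 2 to 5 in TAM long against TAM short and 0 to 16 in the difference between the steps; a lone library is then assumed to vary like the other groups. The causes were not tested, apart from fewer libraries. Sdhaf2 in DMBA+TAM against control turned to 0.13 with library size only and 0.12 with limma, and Atp5g2 in TAM long against control (reported at -0.03) to 0.29 with limma. With the replicate number as a block the counts against control were 85 in DMBA+TAM, 24 in TAM short, 37 in DMBA and 43 in TAM long, with 82 in DMBA+TAM and 0 in TAM long against DMBA, 14 in TAM long against TAM short and 6 in the difference between the steps, and no count moved by over 1.5 times; correlations between same-numbered libraries of 2 groups lay between -0.041 and 0.26, and 2 numbers do not establish a pairing. Depth limits DMBA+TAM most, where the floor of 3 counts is 1.58 and 1.32 CPM against 0.258 to 0.378 elsewhere.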
